A study of Mus musculus with 162 samples.

Results

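MHC class II molecules display peptides taken up from outside the cell to CD4+ T cells. An alpha and a beta chain form the molecule at the cell surface, the invariant chain escorts it to the endosome and blocks its groove, and the DM and DO proteins control the exchange of the invariant chain remnant for a peptide. Dendritic cells, Langerhans cells, macrophages and B cells carry most class II of the skin. In the resting nervous system, microglia carry little and border macrophages more, and the transactivator CIITA is the master switch of transcription. The genes examined were the 8 with these roles: H2-Aa (the I-A alpha chain), H2-Ab1 (the I-A beta chain), H2-Eb1 (the I-E beta chain), Cd74 (the invariant chain), H2-DMa and H2-DMb1 (the DM chains), H2-Oa (the DO alpha chain) and Ciita. They were chosen by name, out of 46078 genes listed for each library, and all 8 were matched by their Ensembl identifiers.

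The study applied MC903 (calcipotriol, a vitamin D analog that produces an atopic dermatitis-like state) or its ethanol vehicle to adult male C57BL/6 mice and sequenced skin, trigeminal ganglia, which hold the cell bodies of the sensory neurons of the face, and spinal cord. MC903 was used at 0.2 mM once daily, on the cheek for skin and ganglia and on the rostral back for spinal cord. Uninjected wild-type mice were sampled on days 1 (6 hours after treatment, by the study's methods), 2, 5 and 8, and wild-type mice that also received daily injections of PBS or of 250 µg aGr1, an anti-Gr1 antibody that depletes neutrophils, were sampled on day 8. TSLPR KO mice (Crlf2tm1Jni on C57BL/6, lacking a receptor subunit for the cytokine TSLP) were sampled on days 8 and 12, and BLT1 KO mice (BLT1, encoded by Ltb4r1, being a receptor for leukotriene B4) on day 8 in skin only. The labels give the ethanol and MC903 mice of each comparison the same genotype and injection. Of 162 libraries, 144 were used (61 of skin, 56 of trigeminal ganglion and 27 of spinal cord), and the 18 of wild-type day 12 were left out.

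The libraries held between 15931871 and 67342879 counts on genes (median 27654801.5). Values are given in cpm, a gene's counts in every 1000000 counts on genes of its library. Keratinocyte, sensory neuron and spinal cord markers were each highest in the tissue of that label. Crlf2 (the deleted gene) was at 0.277 cpm or less in the day 8 TSLPR KO libraries. In day 12 TSLPR KO skin it was at 0.405 to 1.34 cpm, against 2.24 cpm or more in uninjected wild-type skin of days 1 to 8. That skin belongs to another set of libraries by the ratios given below. In day 12 TSLPR KO ganglia it was at 0.907 to 2.06 cpm. Those values overlap wild-type ganglia of day 5 (1.15 to 2.47 cpm) and are under those of day 1 (2.50 to 4.01 cpm). These wild-type ganglia were of uninjected mice and also belong to another set of libraries by those ratios. Crlf2 of injected wild-type mice is not given here. Crlf2 thus does not bear out the label of the day 12 ganglia and does not show it to be wrong. It was at 0.117 cpm in 1 ganglion ethanol library labelled wild-type (cohort B, replicate 2), against a group median of 3.36 cpm. Ltb4r1 in BLT1 KO skin was not at 0 but lower than in wild-type skin of day 8, at 2.33 to 3.70 against 6.66 to 10.5 cpm with ethanol and at 10.6 to 15.1 against 33.5 to 77.6 cpm with MC903. H2-Ea, which C57BL/6 mice do not express because of a promoter deletion, never exceeded 2 counts in any library. Nothing in the labels says that libraries came from separate mice, so p-values measure the spread between these libraries. Throughout, a difference was called where the adjusted p of the edgeR test was under 0.05 in skin and spinal cord or under 0.1 in ganglia, and a log2 fold change is MC903 over ethanol.

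The 6 MHC-encoded genes lie on chromosome 17, which on GRCm38 holds H2-Oa at chr17:34092340-34095234, H2-DMa at chr17:34119541-34139101, H2-DMb1 at chr17:34153072-34160230, H2-Ab1 at chr17:34257689-34269419 and H2-Eb1 at chr17:34305867-34316674 on the plus strand, and H2-Aa at chr17:34282744-34287823 on the minus strand. Ciita is at chr16:10480059-10528418 on the plus strand, and Cd74 lies on another chromosome, outside the MHC. Class II promoters are known for an X box, bound by RFX, followed by a Y box, bound by NF-Y, on which CIITA assembles. The stretches from 100 to 21 bases before the RefSeq start (GRCm38.p6) are shown because this element is what class II promoters are known for, with the X1 letters GNAAC and the Y letters TGATTGG in capitals.
H2-Aa, chr17:34287844-34287923, minus strand: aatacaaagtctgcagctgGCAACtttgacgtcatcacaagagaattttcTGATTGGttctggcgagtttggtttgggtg
H2-Eb1, chr17:34305767-34305846, plus strand: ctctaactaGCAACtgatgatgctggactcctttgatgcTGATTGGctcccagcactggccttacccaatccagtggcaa
H2-DMb1, chr17:34153091-34153170, plus strand: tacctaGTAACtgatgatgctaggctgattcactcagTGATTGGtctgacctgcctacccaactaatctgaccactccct
H2-Oa, chr17:34092279-34092358, plus strand: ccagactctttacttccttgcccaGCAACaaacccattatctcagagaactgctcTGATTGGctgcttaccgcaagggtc

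The pair was found on the gene's strand in 4 of the 5 members with a promoter window (H2-Aa, H2-Eb1, H2-DMb1 and H2-Oa, with 25 or 26 bases between the boxes) and in neither window of H2-DMa. Windows reached from 250 bases before to 50 after the start, and the letters and the allowed gap of 15 to 45 bases were set after these windows had been looked at. Of all 32851 windows, 136 held the pair on the gene's strand (0.414%) and 280 on either strand (0.852%). Both box motifs are common alone, TGATTGG being in 7.82% of windows and GNAAC in 84.8%. None of the 10 class I presentation genes with a window held the pair. A match of letters is a description of the sequence, not of binding.

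In uninjected wild-type mice without MC903, the order of the class II genes per length of exon was similar in the 3 tissues while their levels were far apart. In uninjected wild-type skin without MC903, median levels per kilobase of exon were 350 cpm for Cd74, 135 for H2-Aa, 91.8 for H2-Ab1 and 80.6 for H2-Eb1, then 5.04 for H2-DMa, 3.94 for H2-DMb1, 1.27 for Ciita and 0.673 for H2-Oa (n = 15). Ganglia had the same first place for Cd74 at 47.7 cpm per kilobase, followed by 21.7 for H2-Aa, 12.4 for H2-Eb1 and 11.9 for H2-Ab1, with H2-DMa at 3.50 (n = 14). Spinal cord had 7.97 for Cd74, 2.67 for H2-Ab1, 2.61 for H2-Aa, 1.92 for H2-Eb1 and 1.86 for H2-DMa (n = 5). H2-DMa was thus far under the chain genes in skin and next to H2-Eb1 in spinal cord. Neighbours in this order overlapped between libraries: the ranges of H2-Aa, H2-Ab1 and H2-Eb1 in skin were 57.8 to 264, 57.5 to 210 and 45.5 to 161 cpm per kilobase.

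**Figure D1:**
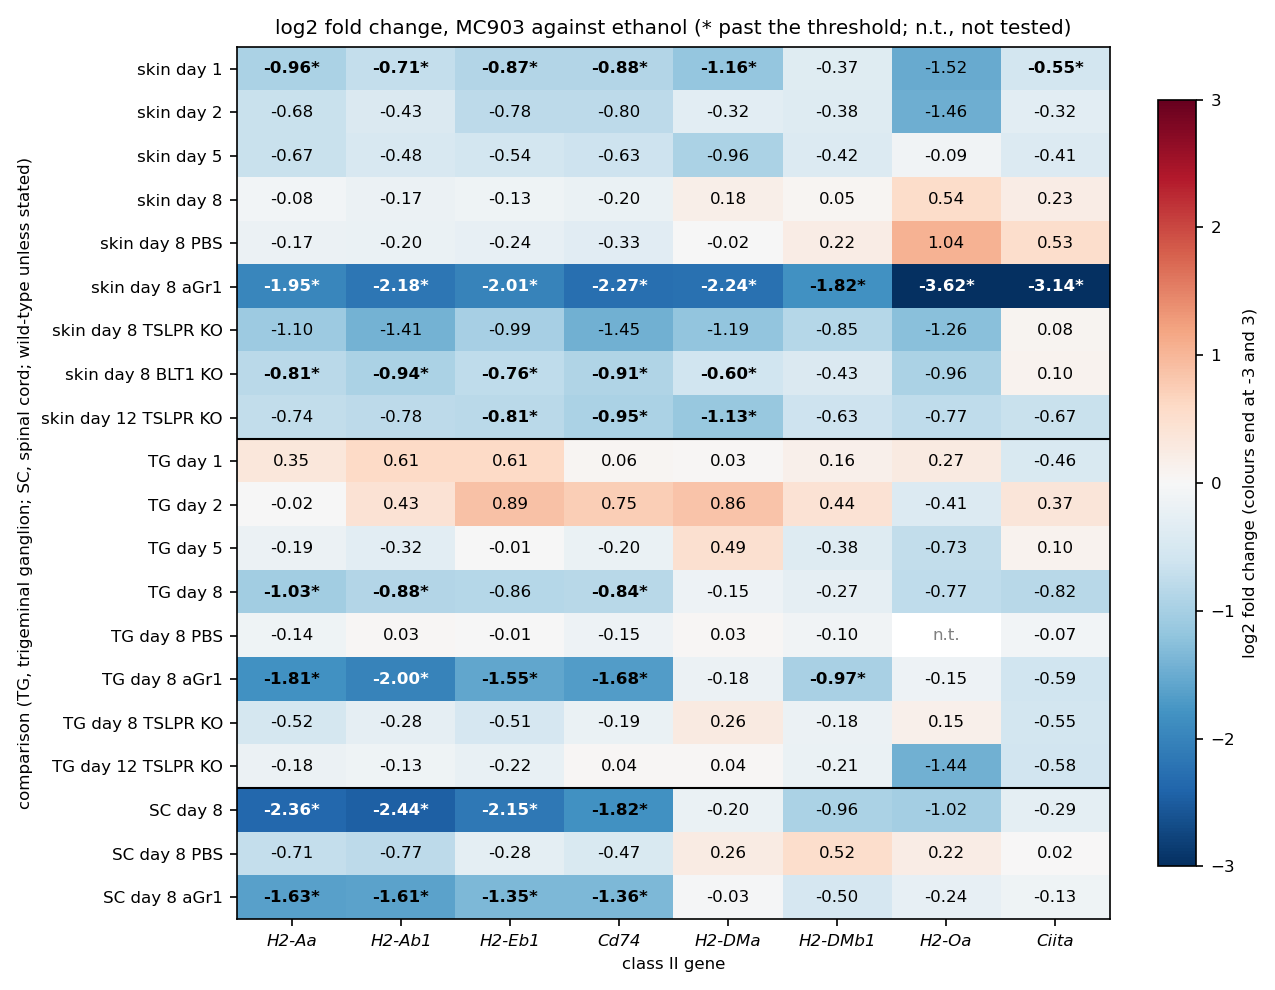
Log2 fold change of MC903 against ethanol for the 8 class II genes (columns) in the 20 comparisons (rows), coloured blue for lower and red for higher, with a star where the call threshold was passed and n.t. where a gene was not tested. All stars are on the lower side: 6 genes in skin on day 1, 8 in skin of aGr1-injected mice, 5 in BLT1 KO skin, 3 in TSLPR KO skin on day 12, 3 in uninjected and 5 in aGr1-injected ganglia, and 4 in each of uninjected and aGr1-injected spinal cord.

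No class II gene was called higher with MC903 in any of the 20 comparisons. Lower calls came from 8 of them, in all 3 tissues, and these are shown in the map of fold changes over all comparisons. Because bulk tissue was sequenced, fewer cells carrying class II and less class II RNA per cell cannot be told apart.

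In skin on day 1, 6 of the 8 class II genes fell with MC903, where 7.47% of all genes were called lower: H2-Aa, H2-Ab1, H2-Eb1, Cd74, H2-DMa and Ciita. H2-Aa was at 348, 701, 648 and 568 cpm in the ethanol libraries and at 353, 277, 265 and 308 cpm in the MC903 libraries, a log2 fold change of -0.96 ± 0.19 (SE, edgeR adjusted p = 0.0132). Ethanol replicate 1 was low, within the MC903 range, and the other 3 ethanol libraries were above it. Cd74 was at 549, 911, 860 and 768 cpm with ethanol and 510, 389, 403 and 430 cpm with MC903, with no overlap (-0.88 ± 0.16, adjusted p = 0.0103). H2-DMa fell the most of those called, from 12.7, 25.9, 25.8 and 21.1 cpm to 11.8, 9.58, 8.98 and 8.79 cpm (-1.16 ± 0.21, adjusted p = 0.00788), again without overlap. Ciita was at 10.7, 11.5, 10.6 and 12.1 cpm with ethanol and 8.78, 6.39, 7.53 and 9.14 cpm with MC903, and its 2 groups also stood apart (-0.55 ± 0.15, adjusted p = 0.04). H2-Ab1 and H2-Eb1 fell by 0.71 ± 0.16 (adjusted p = 0.0208) and 0.87 ± 0.18 (adjusted p = 0.0138) on the log2 scale. H2-DMb1 had -0.37 ± 0.15 (adjusted p = 0.142) and H2-Oa -1.52 ± 0.64 (adjusted p = 0.141), where ethanol replicate 4, at 3.78 cpm of H2-Oa, also carried 6.69 cpm of the B cell gene Cd79a against 0.0920 cpm or less in the other 3.

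Part of the other presentation genes fell on day 1 as well. Of 12 class I presentation genes 6 fell and none rose, led by B2m, the light chain of class I, which was at 528 to 918 cpm with ethanol and 314 to 444 cpm with MC903 (-1.06, adjusted p = 0.00455), and by Tapbp, which loads class I (-0.54, adjusted p = 0.0054). Of 8 genes of class II processing and turnover 3 fell (the endosomal proteases Lgmn, -0.56, and Ctss, -0.53, and the thiol reductase Ifi30, -0.64). Of the 7 interferon gamma pathway genes tested 4 fell, among them Irf1 (-0.70), a transcription factor through which interferon gamma induces Ciita. The promoter factors Rfx5, Rfxap, Rfxank, Nfya, Nfyb, Nfyc and Creb1 gave no call. Markers of the cells that carry class II fell too: 6 of 8 macrophage markers (C1qc by 0.89), the 3 monocyte markers (Ccr2 by 0.87), the cDC2 markers Cd209a (by 0.69) and Irf4 (by 0.62), and of the Langerhans cell markers Epcam (by 0.74) and Cd207 (by 0.75). The summed cpm of the 3 leukocyte markers was 70.7 to 138 with ethanol and 53.5 to 67.3 with MC903. The part of cell numbers in the class II difference was not tested. With 1 fit over all skin groups 1 of the 8 genes, H2-DMa, was called on day 1.

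**Figure D2:**
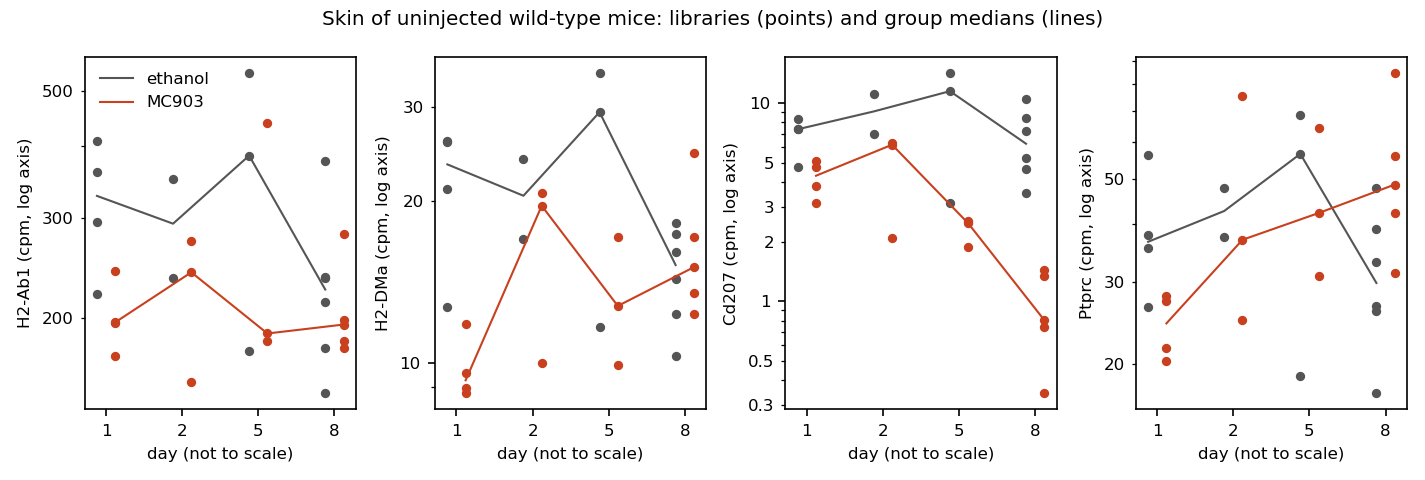
H2-Ab1, H2-DMa, the Langerhans cell marker Cd207 and the leukocyte marker Ptprc in skin of uninjected wild-type mice on days 1, 2, 5 and 8 (cpm, log axis), with 1 point per library and lines through the group medians for ethanol (grey) and MC903 (red). The median of H2-Ab1 with MC903 was 196 cpm against 327 cpm with ethanol on day 1 and 195 against 224 cpm on day 8.

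On the following days none of the 8 genes was called in skin. On day 2 all 8 had negative values, from -1.46 to -0.32 (lowest adjusted p = 0.898), where 0% of all genes were called by edgeR, 1190 genes had an unadjusted p under 0.05 and DESeq2 called 280. H2-Aa was at 669 and 566 cpm with ethanol and at 493, 503 and 192 cpm with MC903, so that the groups of 2 and 3 libraries did not overlap. The lowest, MC903 replicate 3, stood apart in holding sensory neuron transcripts (a marker sum of 858 cpm against 11.9 to 14.7 cpm in the other 4), and no class II gene was called without it either. On day 5 the values ran from -0.96 to -0.09 (lowest adjusted p = 0.0706, H2-DMa), against 14.9% of all genes called. H2-Aa was then at 770, 1002 and 346 cpm with ethanol and at 661, 349 and 351 cpm with MC903, with ethanol replicate 3 under every MC903 library.

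By day 8, when 23.4% of all genes were called, none of the class II genes was, while other presentation genes rose. The 8 genes had values from -0.20 to 0.54 (lowest adjusted p = 0.209), 4 negative and 4 positive. H2-Aa had a lowest, median and highest value of 220, 373 and 512 cpm in 6 ethanol libraries and was at 233, 475, 336, 321 and 358 cpm with MC903. The groups of each gene overlapped. In the same libraries 11 of 12 class I genes rose, among them the heavy chains H2-D1 (0.77) and H2-K1 (0.67) and the immunoproteasome subunit Psmb8 (1.53). Of 7 costimulators and coinhibitors 6 rose (Pdcd1lg2 by 4.09, Cd80 by 2.78 and Cd274 by 2.12), as did 5 of the 8 processing genes (Ctss by 1.57, Lgmn by 1.37) and 6 of 8 interferon gamma pathway genes (Irf1 by 1.9). The Langerhans cell marker Cd207 went the other way, from 3.53 to 10.4 cpm with ethanol to 0.345 to 1.44 cpm with MC903 (-2.81, adjusted p = 8.29e-05), as did the cDC1 marker Xcr1 (-0.87), while the dendritic cell integrin Itgax rose by 2.36 and the 3 leukocyte markers together were at 50.1 to 103 cpm with ethanol and 108 to 229 cpm with MC903.

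The MC903 effect differed between day 8 and day 1 for 3 of the 8 genes, tested as an interaction that called 11.2% of all genes higher on day 8: H2-Aa (0.89 ± 0.31, adjusted p = 0.0471), H2-DMa (1.36 ± 0.30, adjusted p = 0.0038) and H2-Oa (2.08 ± 0.68, adjusted p = 0.0365). Of the class I genes 11 of 12 were so called. With the replicate block, or with cohort B alone, 1 class II gene was called.

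In skin of aGr1-injected mice on day 8 all 8 class II genes fell with MC903, where 17.5% of all genes were called lower. Cd74 was at 877, 576, 428 and 268 cpm with ethanol and at 135, 95.9, 196 and 147 cpm with MC903 (-2.27 ± 0.36, edgeR adjusted p = 0.00176). H2-Ab1 went from 281, 197, 171 and 113.2 cpm to 51.9, 36, 72.2 and 57.3 cpm (-2.18 ± 0.29, adjusted p = 0.000713). H2-DMa went from 35.3, 21.8, 20.6 and 13.2 cpm to 6.12, 4.59, 7.09 and 6.89 cpm (-2.24 ± 0.27, adjusted p = 0.000406). For these 3 genes every ethanol library was above every MC903 library, and the ethanol libraries were themselves widely spread, highest in replicate 1 and lowest in replicate 4. H2-Aa (-1.95 ± 0.32, adjusted p = 0.00183), H2-Eb1 (-2.01 ± 0.33, adjusted p = 0.00212) and H2-DMb1 (-1.82 ± 0.29, adjusted p = 0.00163) fell by similar amounts. Ciita (-3.14 ± 0.66, adjusted p = 0.00674) and H2-Oa (-3.62 ± 1.0, adjusted p = 0.0221) had the largest values and the largest errors. Ciita was at 48.6, 26, 10.1 and 4.44 cpm with ethanol and at 3.06, 2.61, 4.84 and 2.53 cpm with MC903, so that ethanol replicate 4 lay within the MC903 range.

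B cell transcripts moved with these values. The 6 B cell markers summed to 727, 346, 65.1 and 24.2 cpm in the ethanol libraries, in the same order as the class II genes, and to 5.12 to 8.71 cpm with MC903, and all 6 fell. Cd79a, a chain of the B cell receptor, was at 98.9, 41.9, 4.61 and 0.391 cpm with ethanol and at 0.320 cpm or less with MC903. The class II genes that B cells favour, H2-Ob (-5.68), H2-Eb2 (-4.52) and H2-DMb2 (-2.88), also fell. Without ethanol replicates 1 and 2, a choice made after these values were seen, 7 of the 8 genes were still called, with smaller values for Cd74 (-1.56), H2-Ab1 (-1.68), H2-DMa (-1.74), H2-Eb1 (-1.38), H2-Aa (-1.32), H2-DMb1 (-1.24) and Ciita (-1.39, adjusted p = 0.0149), while H2-Oa had -0.58 (adjusted p = 0.477). T cell genes were lower as well (Cd3e by 3.12), and so was Cd207 (by 3.18), while 5 of 8 macrophage markers rose, their sum going from 367 to 599 cpm to between 1120 and 2030 cpm. Of the 12 class I genes 7 fell (Nlrc5, the class I transactivator, by 1.03, and Tap1 by 0.99), and 5 of 8 processing genes rose (Ctsl by 1.75, Lgmn by 1.85).

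**Figure D3:**
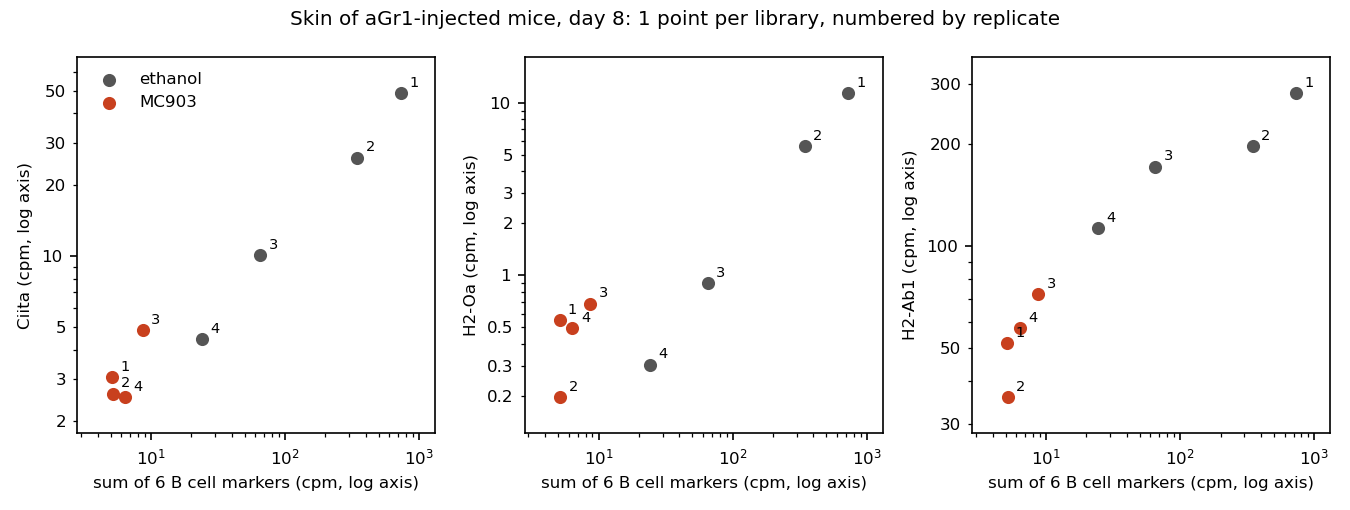
Ciita, H2-Oa and H2-Ab1 (cpm, log axis) against the summed cpm of 6 B cell markers (log axis) in the 8 skin libraries of aGr1-injected mice on day 8, 1 point per library with its replicate number. Ethanol libraries run from 24.2 to 727 cpm of B cell markers and MC903 libraries from 5.12 to 8.71 cpm, and the class II levels of the ethanol libraries follow the same order.

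The MC903 effect in aGr1-injected skin was lower than that in uninjected skin for all 8 genes, by 1.86 for H2-Aa to 4.15 for H2-Oa on the log2 scale, where the interaction called 3.36% of all genes lower. With ethanol replicates 1 and 2 left out 1 of the 8 was called, with the replicate block 5 and with cohort B alone 4. Ratios among the class II genes also set these 2 groups of libraries apart (below), so injection and preparation cannot be told apart here. The injected control is the PBS group, where MC903 gave no call among the 8 (values from -0.33 to 1.04, 3.99% of all genes called) and H2-Aa was at 152, 229 and 90.6 cpm with ethanol and 148 and 125.2 cpm with MC903. Against PBS, the values of aGr1 were negative for all 8 genes, from -4.62 to -1.72, and none was called, with 0.232% of all genes called and H2-DMa nearest at -2.17 ± 0.45 (adjusted p = 0.0741).

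In both knockout lines most class II genes had negative values with MC903 in skin. Part of them were called lower, in BLT1 KO on day 8 and in TSLPR KO on day 12. In BLT1 KO skin on day 8 5 genes fell, with 14.6% of all genes called lower. H2-Ab1 was at 461, 564 and 725 cpm with ethanol and at 359, 308 and 272 cpm with MC903 (-0.94 ± 0.20, adjusted p = 0.00788). Cd74 went from 898, 1129 and 1124 cpm to 660, 613 and 450 cpm (-0.91 ± 0.18, adjusted p = 0.00597), the groups being apart for both genes. H2-Aa (-0.81 ± 0.21, adjusted p = 0.02), H2-Eb1 (-0.76 ± 0.18, adjusted p = 0.0125) and H2-DMa (-0.60 ± 0.16, adjusted p = 0.0227) also fell, and Ciita was at 26, 22.6 and 21.4 cpm with ethanol and 26.7, 35 and 14.7 cpm with MC903, its groups overlapping. As in wild-type skin of day 8, other presentation genes rose. Here 7 of 12 class I, 5 of 7 costimulatory and 4 of 8 processing genes did and none fell, where 3627 of 25771 genes were called higher. Among the dendritic cell markers Cd207 fell by 3.78, Irf4 by 1.97 and Cd209a by 0.80, which does not describe all such markers. Cd79a was at 0.306 cpm or less in each library. The BLT1 KO effect was not called different from wild-type for any class II gene (lowest adjusted p = 0.0639, 6.95% of all genes called), with all 8 differences negative. With 1 fit over all skin groups 1 of the 8 genes, H2-Ab1, was called in BLT1 KO skin, and without ethanol replicate 2 there were 2.

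In TSLPR KO skin on day 8 no gene was called (lowest adjusted p = 0.065, 2.45% of all genes called), with values from -1.45 to 0.08. H2-Ab1 was at 598 and 229 cpm with ethanol and at 135, 169 and 148 cpm with MC903, the 2 groups being apart. DESeq2 called 4 of the 8 (1313 of all genes) and the fit with no filter 5 (1401 of all genes). The replicate block (1274 of all genes) and 1 fit over all skin groups (1043) called 3 each. The reported fit called 594 of all genes. On day 12 the 8 values were all negative, from -1.13 to -0.63, and 3 genes fell, with 4.62% of all genes called lower. H2-DMa went from 31.7, 37.6 and 17.8 cpm to 16.5, 15.3, 13.4 and 14.4 cpm (-1.13 ± 0.18, adjusted p = 0.00575), every MC903 library being under every ethanol library. H2-Eb1 (-0.81 ± 0.21, adjusted p = 0.0398) and Cd74 (-0.95 ± 0.25, adjusted p = 0.0411) overlapped, ethanol replicate 3 being low. That library also held 9.07 cpm of Cd79a, and without it 5 genes were called, whereas without any other library 1 was. DESeq2 called 6 (4009 of all genes, against 2550 in the reported fit). With 1 fit over all skin groups (2746 of all genes) or the replicate block (548) it was 1. Cd207 (-2.54) and the cDC2 markers Cd209a (-1.93), Mgl2 (-1.81) and Irf4 (-1.13) fell, and none of the 12 class I genes was called. The day 8 difference from wild-type was not called for any class II gene (lowest adjusted p = 0.145, 0.177% of all genes called).

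In the trigeminal ganglion the early days gave no call. On day 1 the values ran from -0.46 to 0.61 (0% of all genes called, 2034 at an unadjusted p under 0.05, 78 by DESeq2), and single libraries stood far out: H2-Aa was at 48, 146, 56.5 and 50.7 cpm with ethanol and 161, 80.7, 91.5 and 71.5 cpm with MC903. Day 2 had values from -0.41 to 0.89 (0% called, 1527 at an unadjusted p under 0.05, 65 by DESeq2). H2-Ab1 was then at 23.9 and 23.1 cpm with ethanol and at 26.4, 35.1 and 33.6 cpm with MC903. Day 5 had values from -0.73 to 0.49, with 0.00823% of all genes called.

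By day 8 the I-A chains and the invariant chain were lower in the ganglion, in a tissue where few genes moved. Of the 9 genes called lower in all, 3 were class II genes (0.0352% of 25600 tested), 32 being called higher. H2-Aa was at 67.4, 92.0, 82.9, 90.4 and 82.2 cpm with ethanol and at 20.8, 31.3, 57.2, 62.9 and 42.3 cpm with MC903 (-1.03 ± 0.18, edgeR adjusted p = 0.0572). The lowest ethanol library was above the highest MC903 library, and the first 2 MC903 libraries, those of cohort A, were the lowest. H2-Ab1 went from 32.5, 37.5, 47.5, 41.8 and 43.8 cpm to 13.5, 15.2, 29.2, 34.1 and 24.1 cpm, 1 MC903 library overlapping (-0.88 ± 0.14, adjusted p = 0.0288). Cd74 was at 109, 126.5, 116.8, 99.2 and 84.5 cpm with ethanol and at 38.2, 55.5, 61, 83.2 and 66.4 cpm with MC903, with no overlap (-0.84 ± 0.16, adjusted p = 0.0958). H2-Eb1 was just over the threshold (-0.86 ± 0.17, adjusted p = 0.1). H2-DMa and Ciita were at 10.7 to 18.7 and 2.45 to 4.0 cpm with ethanol and at 9.47 to 14.3 and 0.698 to 3.23 cpm with MC903.

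The other 6 genes called lower were named after their values had been seen. Gvin1 (-0.93 ± 0.17, adjusted p = 0.0775), Gbp9 (-1.24 ± 0.23, adjusted p = 0.0796), Gbp8 (-1.95 ± 0.38, adjusted p = 0.0992) and Parp14 (-0.57 ± 0.11, adjusted p = 0.0981) are known as interferon-inducible genes, and Mrgprb5 (-0.97 ± 0.18, adjusted p = 0.0846) and D430041D05Rik (-0.66 ± 0.12, adjusted p = 0.0796) make up the rest. Gbp8 was at 1.20 to 2.31 cpm with ethanol and 0.244 to 0.576 cpm with MC903, and Gvin1 at 6.65 to 10.5 and 3.38 to 5.34 cpm. No gene of the class I, interferon gamma, promoter factor, macrophage or dendritic cell lists was called, B2m having -0.63 (adjusted p = 0.338) and the macrophage marker Adgre1 -0.71 (adjusted p = 0.486). Without the cohort term, or in cohort B alone, none of the class II genes was called, and the same held when 1 of 4 libraries was left out (MC903 or ethanol replicate 2 or ethanol replicate 1 of cohort A, or MC903 replicate 3 of cohort B). Without the ethanol library that lacks Crlf2, 4 were called.

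**Figure D4:**
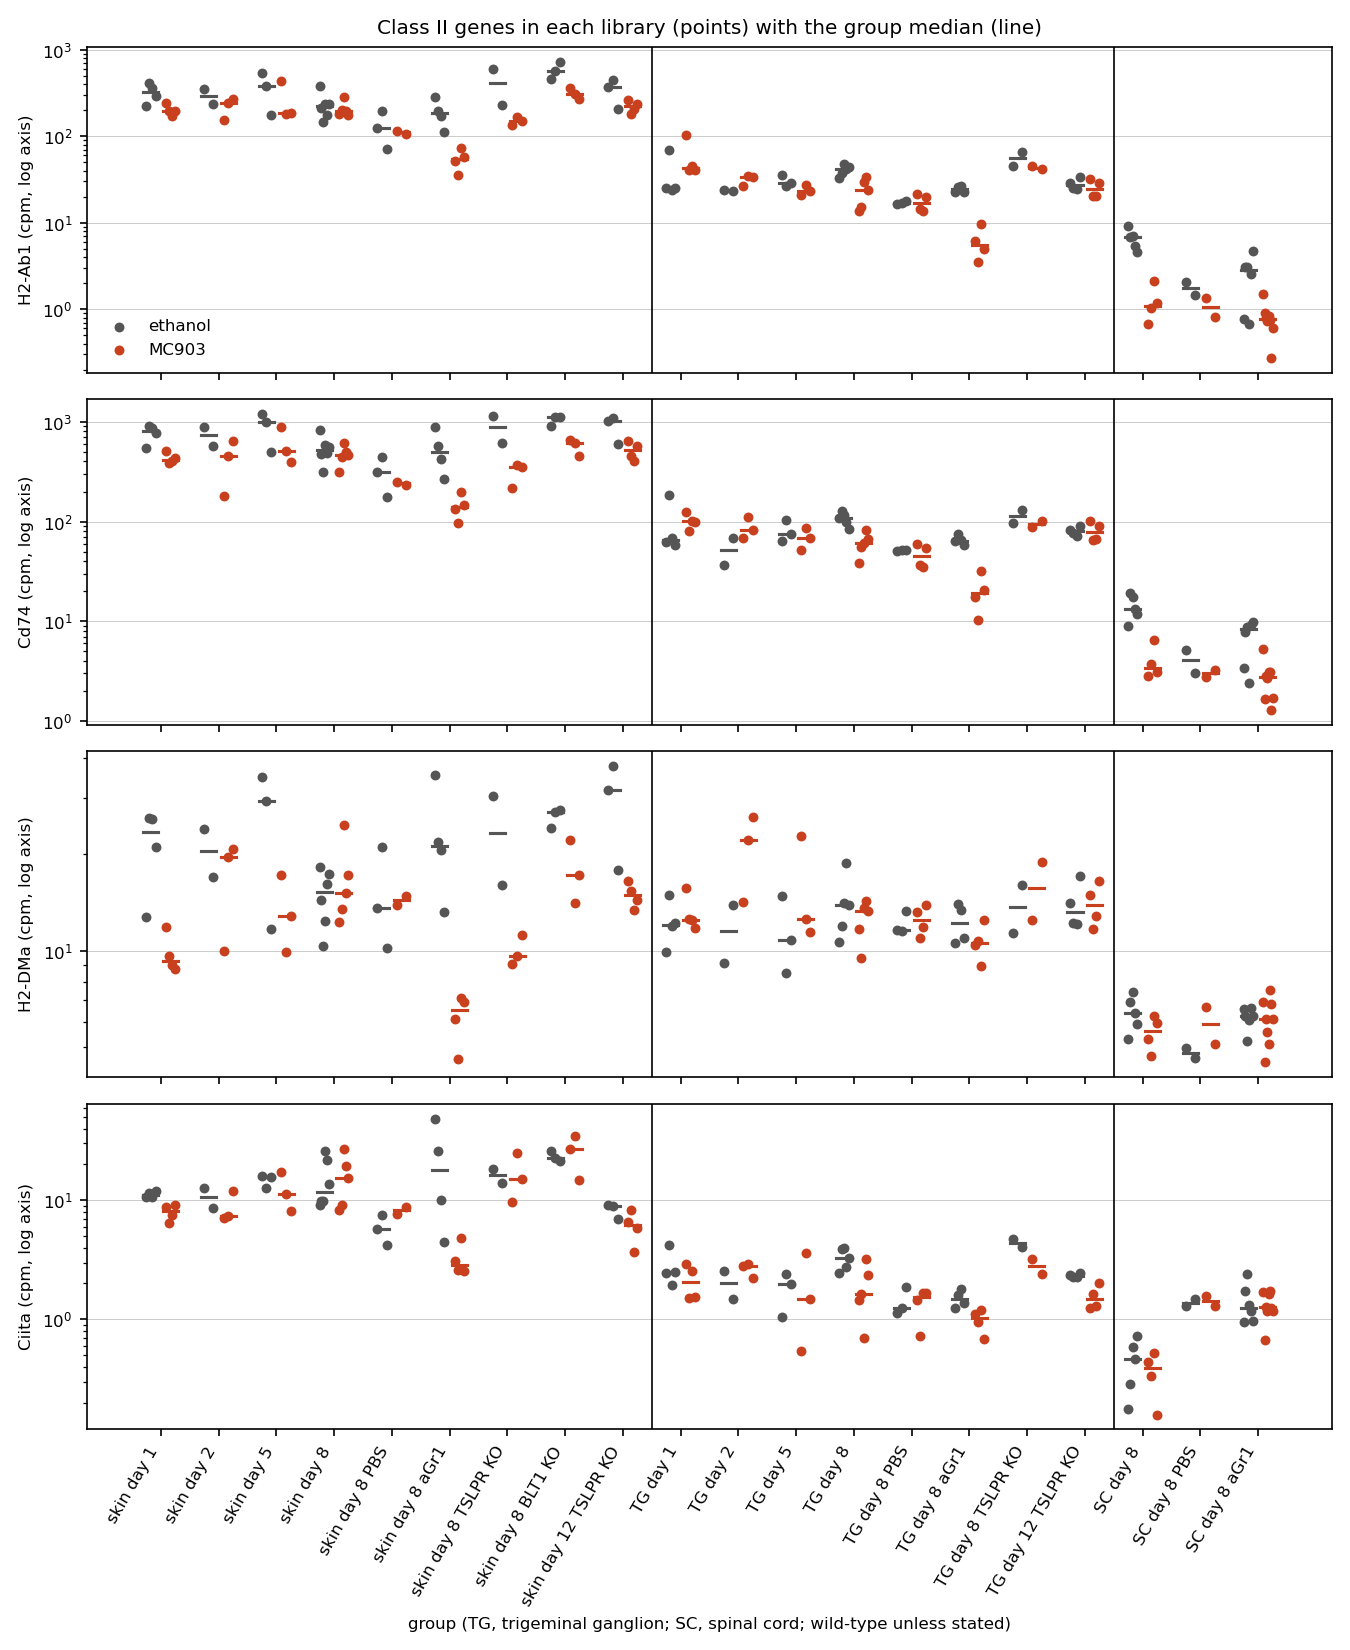
H2-Ab1, Cd74, H2-DMa and Ciita in each library (points, cpm, log axis) with the group median (line) for ethanol and MC903 in the 20 groups of skin, trigeminal ganglion (TG) and spinal cord (SC). In TG of aGr1-injected mice H2-Ab1 was at 22.6 to 26.6 cpm with ethanol and 3.50 to 9.61 cpm with MC903, and in SC of uninjected mice at 4.58 to 9.07 and 0.673 to 2.10 cpm.

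In ganglia of aGr1-injected mice 5 class II genes fell, with 1.01% of all genes called lower. H2-Ab1 was at 22.7, 25.7, 26.6 and 22.6 cpm with ethanol and at 6.12, 3.50, 9.61 and 4.91 cpm with MC903 (-2.0 ± 0.22, adjusted p = 0.000677). H2-Aa went from 38.4, 34.9, 37.4 and 37.6 cpm to 9.75, 5.35, 16.3 and 10.4 cpm (-1.81 ± 0.22, adjusted p = 0.00138). H2-Eb1 was at 33, 33.4, 32.8 and 33.1 cpm with ethanol and at 9.75, 6.77, 17.4 and 10.5 cpm with MC903 (-1.55 ± 0.20, adjusted p = 0.0019). The ethanol libraries lay within a narrow band and the MC903 libraries wholly below it, MC903 replicate 2 lowest and replicate 3 highest for all 3 genes. Cd74 fell by 1.68 ± 0.23 (adjusted p = 0.0029) and H2-DMb1 by 0.97 ± 0.17 (adjusted p = 0.0135), while H2-DMa was at 10.6, 14, 13.4 and 11 cpm with ethanol and 10.4, 10.7, 8.98 and 12.5 cpm with MC903 (-0.18 ± 0.14, adjusted p = 0.614). Whichever 1 library was left out, 5 class II genes were called.

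In these ganglia Adgre1, a macrophage marker, fell from between 6.25 and 8.40 cpm to between 2.27 and 4.68 cpm (-0.98, adjusted p = 0.0542), and Cx3cr1 (-1.01), Mgl2 (-0.98) and Ighm (-1.24) fell, while Mertk (0.98) and Cd163 (0.91), also macrophage genes, rose. The 8 macrophage markers summed to 127.5 to 158 cpm with ethanol and 120 to 183 cpm with MC903, and the 5 microglia markers to 82.9 to 89.3 and 46.3 to 68.7 cpm. B cell markers summed to 17.4 to 19.2 cpm with ethanol and 7.10 to 15.2 cpm with MC903, Cd79a having no call (-0.30, adjusted p = 0.709), and their part in the class II result was not tested. The difference from uninjected ganglia was not called (0% of all genes called by edgeR, 1709 at an unadjusted p under 0.05). In PBS-injected ganglia no gene was called (3.36% of all genes called), with values from -0.15 to 0.03 over the 7 genes tested, and H2-Aa was at 22.4, 24.5 and 24.5 cpm with ethanol and at 27.4, 18.6, 15.9 and 24.9 cpm with MC903.

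Set against the PBS group, the aGr1 effect was lower for 3 class II genes of the 8 genes called lower in all (0.0311% of 25760): H2-Ab1 (-2.01 ± 0.29, adjusted p = 0.0193), H2-Eb1 (-1.53 ± 0.27, adjusted p = 0.09998) and H2-Aa (-1.65 ± 0.30, adjusted p = 0.09998), the latter pair at the threshold. The PBS effect minus the uninjected effect, compared after the data had been seen, was between -0.57 and 0.91 and called 0% of all genes (736 at an unadjusted p under 0.05).

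In ganglia labelled TSLPR KO no class II gene was called on day 8 (values from -0.55 to 0.26, 0% of all genes called, 1886 at an unadjusted p under 0.05, 185 by DESeq2) or on day 12 (values from -1.44 to 0.04, 0.304% called). On day 12 H2-Aa was at 39.4, 38.9, 32.8 and 44 cpm with ethanol and at 37.1, 30.1, 28.7 and 38.9 cpm with MC903, the groups overlapping. Same-numbered libraries deviated together there, and with the replicate block 0 of the class II genes were called by edgeR (356 of all genes). The day 8 difference from wild-type was positive for all 8 genes, from 0.08 to 0.91, and called 0% of all genes (2234 at an unadjusted p under 0.05).

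In the spinal cord of uninjected mice on day 8 the chain genes and Cd74 showed a fold of 3.52 to 5.42 lower with MC903, at levels far under those of skin, with 7.14% of all genes called lower. H2-Ab1 was at 9.07, 6.86, 7.05, 5.32 and 4.58 cpm with ethanol and at 0.673, 1.03, 2.10 and 1.17 cpm with MC903 (-2.44 ± 0.32, edgeR adjusted p = 0.000229). H2-Aa was at 9.42, 9.93, 13.3, 10.1 and 7.10 cpm with ethanol and at 1.74, 1.56, 2.96 and 1.62 cpm with MC903 (-2.36 ± 0.23, adjusted p = 2.04e-05). H2-Eb1 went from 3.29, 4.43, 4.81, 3.74 and 2.43 cpm to 0.699, 0.929, 1.18 and 0.570 cpm (-2.15 ± 0.27, adjusted p = 0.000133). For all 3 the groups were wide apart, MC903 replicate 3 being the highest of its group. Cd74 was at 9.07, 19.2, 17.4, 13.4 and 11.9 cpm with ethanol and at 2.80, 3.72, 6.50 and 3.10 cpm with MC903 (-1.82 ± 0.26, adjusted p = 0.000405), also without overlap. H2-DMa was at 5.28 to 7.40 cpm with ethanol and 4.68 to 6.24 cpm with MC903 (-0.20 ± 0.15, adjusted p = 0.439). H2-DMb1 (-0.96 ± 0.30, adjusted p = 0.0569), H2-Oa (-1.02 ± 0.35, adjusted p = 0.0737) and Ciita (-0.29 ± 0.47, adjusted p = 0.774) were low throughout, Ciita at 0.158 to 0.718 cpm over both groups.

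**Figure D5:**
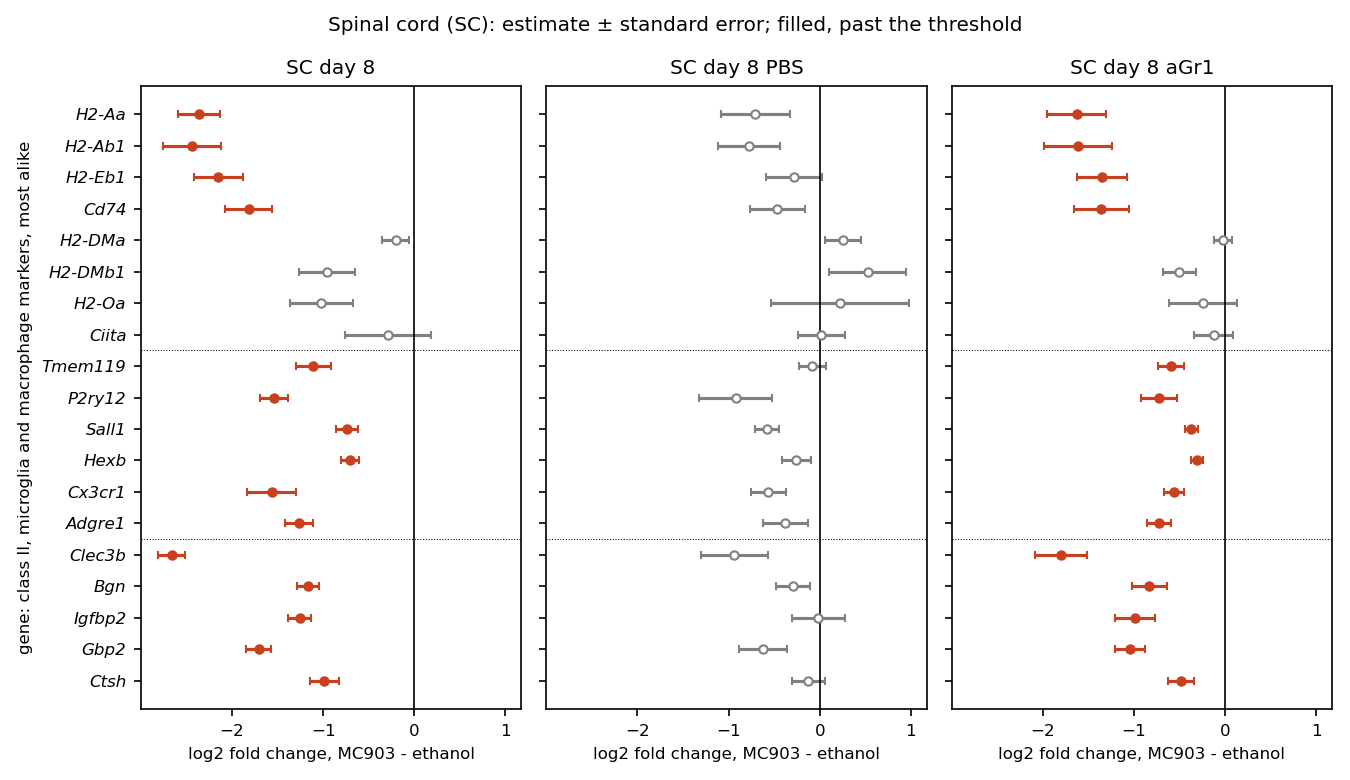
Log2 fold change of MC903 against ethanol with its standard error in the 3 spinal cord comparisons, for the class II genes, microglia and macrophage markers and the 5 genes whose levels were most like class II, filled where the threshold of 0.05 was passed. H2-Ab1 is at -2.44 in uninjected and -1.61 in aGr1-injected mice, and in PBS-injected mice no symbol is filled. The 5 most alike genes were picked over these same libraries.

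Microglia and macrophage markers were lower in the same libraries. All 5 microglia markers fell, P2ry12 by 1.54, Cx3cr1 by 1.56 and Tmem119 by 1.11, their sum being 241 to 275 cpm with ethanol and 100 to 161 cpm with MC903. Adgre1 fell from between 4.93 and 7.22 cpm to between 2.15 and 2.93 cpm (-1.27), Csf1r by 0.66 and C1qa by 0.35, while Mertk rose by 0.85. The 8 macrophage markers summed to 197 to 235 cpm with ethanol and 158 to 194 cpm with MC903. Cd207 was at 0.104 cpm or less and Cd209a at 0.311 cpm or less in every one of these libraries, and Cd79a at 0.427 cpm or less. Among the promoter factors Nfya (-0.83) and Creb1 (-0.42) fell and Rfx5 (0.36) and Nfyb (0.27) rose, and 2 of 12 class I genes fell (B2m by 0.36 and the chaperone Calr by 0.89). The part of microglia or macrophage numbers in the class II values was not tested.

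In aGr1-injected mice the same 4 genes fell in spinal cord, with 6.79% of all genes called lower, but the groups overlapped. H2-Aa was at 1.16, 3.12 and 4.28 cpm (lowest, median and highest of 6) with ethanol and at 0.322, 0.903 and 1.84 cpm (of 8) with MC903 (-1.63 ± 0.32, edgeR adjusted p = 0.00245). Ethanol replicates 1 and 4 were low and within the MC903 range. H2-Ab1 (-1.61 ± 0.37, adjusted p = 0.00771), H2-Eb1 (-1.35 ± 0.27, adjusted p = 0.0027) and Cd74 (-1.36 ± 0.30, adjusted p = 0.00593) had values of similar size, and all 5 microglia markers fell again (sums of 193 to 211 and 108 to 172 cpm). With the replicate block 2 of the 8 class II genes were called. In PBS-injected mice no class II gene was called, with values from -0.77 to 0.52 (0% of all genes called, 1571 at an unadjusted p under 0.05, 178 by DESeq2), where H2-Aa was at 2.26 and 1.20 cpm with ethanol and 1.29 and 0.897 cpm with MC903. None of the differences between injection groups was called for class II in the spinal cord: aGr1 minus uninjected (0.13 to 0.79, 0.532% of all genes called), aGr1 minus PBS (-1.08 to -0.16, 0% called, 1485 at an unadjusted p under 0.05) and, added after the data had been seen, PBS minus uninjected (0.30 to 1.86, 0.00367% called).

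In uninjected wild-type mice on day 8, the effects in ganglion and spinal cord were set against that in skin by an interaction. The skin and spinal cord effects differed for 6 of the 8 genes, with 8.68% of all genes called higher in skin: H2-Aa (2.28 ± 0.32, adjusted p = 4.24e-05), H2-Ab1 (2.27 ± 0.37, adjusted p = 0.000235), H2-Eb1 (2.01 ± 0.34, adjusted p = 0.000347), Cd74 (1.61 ± 0.35, adjusted p = 0.00296), H2-Oa (1.55 ± 0.43, adjusted p = 0.015) and H2-DMb1 (1.0 ± 0.34, adjusted p = 0.0482). Skin and ganglion differed for H2-Aa (0.97 ± 0.30, adjusted p = 0.0498), with 4.94% of all genes called higher, and the other 7 differences had the same sign and were not called. None was called with RLE size factors, with the replicate block, in cohort B alone or without the ethanol library that lacks Crlf2. Skin and ganglion came from mice treated on the cheek and spinal cord from mice treated on the back, so that in the second contrast the tissue and the treated site cannot be told apart. Class I genes were also called higher in skin, 10 of 12 against the ganglion and 9 of 12 against the spinal cord.

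The proportions among the members also set the libraries apart. The ratio of H2-Aa to H2-Eb1 counts was 2.18 to 5.53 in 41 uninjected skin libraries of days 1 to 8, 1.39 to 1.73 in the 13 of PBS- or aGr1-injected mice and 1.19 to 1.54 in the 7 of TSLPR KO mice on day 12. In ganglia the same ratio was 1.70 to 7.50, 0.790 to 1.18 and 1.03 to 1.20, and in spinal cord 1.68 to 2.92 in uninjected and 0.381 to 1.30 in injected mice. For this ratio the uninjected libraries of days 1 to 8 did not overlap the other sets in any tissue, while those other sets overlapped each other, so levels are not compared between these sets, in which injection, day and the preparation of the libraries cannot be told apart. H2-DMb1 over H2-DMa in skin was 0.231 to 0.791 in the first set and 0.855 to 1.58 in the second. Of the 50-base stretches of H2-DMb1, 22.7% are shared with H2-DMb2. H2-Oa (15.5%), H2-DMa (8.43%) and Ciita (1.46%) share stretches with BC051537, Brd2 and Dexi, which they overlap on the other strand. By this measure the counts of these genes are less certain than those of H2-Ab1, H2-Eb1 and Cd74 (at chr18:60803848-60812652, plus strand), which share none. In position H2-Eb1 overlaps Gm20513 on the other strand and Cd74 overlaps Mir5107.

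Across all libraries of a tissue, other genes followed the mean log2 level of H2-Aa, H2-Ab1, H2-Eb1 and Cd74. These correlations are descriptions over libraries of different treatment, day and injection, and they pool the sets that the ratios above set apart. A shift between those sets can raise or lower r, and its part was not tested. In skin the most alike were Slamf7 (Pearson r = 0.82), Klrb1b (0.80), Serpinf1 (0.80), Fcrls (0.79) and Cd3e (0.77; n = 61). In ganglia they were P4ha1, Rcn1, Adgre1 (0.78 each), Rlbp1 and Serpind1 (0.77 each; n = 56), and in spinal cord Clec3b (0.94), Bgn (0.93), Igfbp2 (0.92), Gbp2 (0.92) and Ctsh (0.90; n = 27). The 5 spinal cord genes were lower with MC903 in uninjected mice, Clec3b from between 25.6 and 34.3 cpm to between 4.21 and 5.85 cpm (-2.66) and Gbp2 by 1.71. They were picked over libraries that include these, so their fall there follows in part from the choice. None of them was called in PBS-injected mice. Of the other class II genes, H2-DMa followed the 4 at r = 0.86 in skin, 0.42 in ganglia and 0.26 in spinal cord, Ciita at 0.67, 0.67 and -0.33, and H2-DMb1 at 0.24, -0.07 and 0.08.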

How the data were processed

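RNA was extracted with RNAzol and made into Illumina libraries, and 144 libraries of skin, trigeminal ganglion and spinal cord were analysed. The submitters' processing notes name Bowtie2, TopHat, TopHat2, HTSeq and the mm10 build. The values the authors deposited are raw, unnormalized counts of reads for each Ensembl gene. Annotation release and strand setting are not given in the sources used here. Of 46078 genes, 45143 matched GENCODE M21 symbols, and tally lines that name no gene were left out. The 8 members and all gene lists were chosen with earlier results of these data known. Groups followed the tissue, genotype, injection, treatment and day in the labels. Each of 20 comparisons was fitted on its own libraries with edgeR 4.0.16 (glmQLFit and glmQLFTest, TMM, at least 10 counts in total) in R 4.3.3, with a cohort term for day 8 uninjected wild-type mice, whose labels are of 2 styles (A and B), and Benjamini-Hochberg adjustment over all genes tested. Interactions (9 planned, 2 added) used the same model. DESeq2 1.42.0 was an alternative, and the scripts were tested on simulated data. Tables were joined in Python 3.11.15.

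Named genes were the 8 members in each comparison, up to 4 called genes of a list with the smallest p (otherwise up to 2 of the highest cpm), fixed cell type markers, and the 5 genes per tissue with the highest Pearson r to log2(cpm + 0.5) of the 4 abundant members. Of the comparisons with 3 or more pairs, same-numbered libraries deviated together (r over 0.1 in every pair) only in ganglia of day 5 (0.157 to 0.363) and of TSLPR KO day 12 (0.234 to 0.628). Promoter sequence is from RefSeq (GRCm38.p6).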

Additional observations from a re-analysis of the deposited data

Results flagged for a closer look

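Stray libraries were looked for in 160 combinations of gene and group, using only groups of 4 or more libraries. The measure was the gap of the highest or lowest library to its neighbour as a share of the group's range. In all 11 stood out, where about 1 in 20, or 8.0, would by chance if genes were independent. Class II genes of a library moved together, so that number is only a guide. Of the 11, 5 were in the ganglion on day 1. Ethanol replicate 2 was far above the other 3 for H2-Aa (146 cpm against a median of 50.7), H2-Ab1 (68.5 against 25.1), H2-Eb1 (47.4 against 17.9) and Cd74 (186 against 62.3), and MC903 replicate 1 was far above for H2-Ab1 (103 against 41.1). In uninjected skin on day 8, 1 MC903 library of cohort A was high for H2-Ab1 (281 cpm against 188) and H2-DMb1 (9.65 against 5.77). H2-Oa was at 0.146 cpm in MC903 replicate 2 of PBS-injected ganglia and at 0 in the other 3. In spinal cord H2-Aa was at 2.96 cpm in MC903 replicate 3 of uninjected mice (1.62 in the others), H2-DMa at 5.21 cpm in ethanol replicate 3 of aGr1-injected mice (6.26) and Ciita at 0.673 cpm in MC903 replicate 2 of aGr1-injected mice (1.27).

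In the planned edgeR interactions 18 effects of MC903 differed between groups, beside the 3 called in ganglia for aGr1 minus PBS. In skin on day 8 the effect in aGr1-injected less that in uninjected mice was -1.86 for H2-Aa, -1.99 for H2-Ab1, -1.86 for H2-Eb1, -2.40 for H2-DMa, -1.86 for H2-DMb1, -4.15 for H2-Oa, -2.05 for Cd74 and -3.36 for Ciita, the ethanol libraries 1 and 2 of the aGr1 group being rich in B cell transcripts. Between day 8 and day 1 of skin it was 0.89 for H2-Aa, 1.36 for H2-DMa and 2.08 for H2-Oa. Between skin and ganglion it was 0.97 for H2-Aa, and between skin and spinal cord 2.28 for H2-Aa, 2.27 for H2-Ab1, 2.01 for H2-Eb1, 1.0 for H2-DMb1, 1.55 for H2-Oa and 1.61 for Cd74. For aGr1-injected against uninjected skin, injection and preparation of the libraries cannot be told apart. Against PBS-injected skin none of the class II genes was called. The reasons were not tested.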

How the results depend on the processing

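Over all alternatives, 0 of 603 values of called class II genes changed sign, and 96 values of those not called did (2370 compared in all), the latter with reported log2 fold changes of at most 0.79 in size. The number of class II genes called moved as follows. With 1 fit over all groups of a tissue it was 1 in skin on day 1 (6 in the reported fit), 1 on day 5 (0), 3 in TSLPR KO on day 8 (0), 1 in BLT1 KO (5) and 1 in TSLPR KO on day 12 (3). DESeq2 gave 1 in skin on day 5, 4 in TSLPR KO on day 8 and 6 on day 12. Without a filter on low counts there were 5 in TSLPR KO skin on day 8 (1401 of all genes, 594 in the reported fit). In ganglia on day 2 there was 1 (177 of all genes, 0 in the reported fit). With a replicate block there were 3 in TSLPR KO skin on day 8, 1 on day 12, 2 in aGr1-injected spinal cord (4), 5 for aGr1 minus uninjected skin (8), 1 for day 8 minus day 1 (3) and 0 for skin minus ganglion (1). The numbers paired libraries in 2 comparisons, where the block changed no class II call and genome-wide calls went from 2 to 54 and from 79 to 356. Without the cohort term the ganglion on day 8 had 0 (3). Cohort B alone gave 0 there, 4 for aGr1 minus uninjected skin, 1 for day 8 minus day 1 and 0 for skin minus ganglion. PBS in place of uninjected mice gave 0 in skin and 3 in ganglia. Leaving out both ethanol libraries rich in B cell transcripts gave 1 for aGr1 minus uninjected skin. RLE size factors, and leaving out the wild-type library without Crlf2, each gave 0 for skin minus ganglion. The causes were not tested.

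Leaving out 1 library at a time gave 4 to 7 in skin on day 1, 0 to 1 on day 5 (1 without ethanol 3) and 7 to 8 with aGr1. In BLT1 KO skin it gave 2 to 6 (2 without ethanol 2, 3 without ethanol 3, MC903 2 or MC903 3), and in TSLPR KO skin on day 12 1 to 5. Ganglia on day 8 had 0 to 4 in uninjected mice and 5 to 5 with aGr1, and uninjected spinal cord had 4 to 5. In TSLPR KO skin on day 8, ganglia on day 2 and PBS-injected spinal cord, leaving out a library could leave 1 in a group. Counts are not given for those. In uninjected ganglia it was 0 without the 4 libraries named above and 1 without MC903 replicate 1 of cohort A. Single libraries were not left out in aGr1-injected spinal cord. Counts over all genes moved by more than 1.5 times in 15 of 20 comparisons under 1 fit per tissue, 12 of 20 under DESeq2, 8 of 20 without a filter and 17 of 29 with the block. Depth limits H2-Oa in ganglia and in spinal cord, and Ciita in uninjected spinal cord, all under 1 cpm. In aGr1-injected spinal cord with MC903 the medians of H2-Aa, H2-Ab1 and H2-Eb1 were also under 1 cpm (0.903, 0.768 and 0.878).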
